A study of Danio rerio with 12 samples.

Results

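The comparison described here set all knockout kidneys against all wild-type kidneys of the series, with a term for experiment, so that the value of each gene is its average change over both knockouts. It used all 12 libraries, 6 knockouts and 6 wild types. The 4 groups held 3 libraries each: homozygous cebpd knockouts (cebpd KO), their wild types (cebpd WT), homozygous CEN knockouts (CEN KO) and their wild types (CEN WT). The fish were adult males of the EK strain, 4 to 12 months old. All of them, wild types included, had been kept in 0.5 to 0.7 µM tamoxifen for 17 h to ablate heart muscle cells, and whole kidneys were taken at 7 days after the incubation. There was no uninjured group, so the values compare genotypes after injury. The labels name neither the transgene that made the heart muscle cells sensitive nor the lesion in either line, and they do not say whether a library came from 1 fish. The p-values therefore measure the spread between libraries, of which an unknown part may be technical. Pairs of libraries within a group differed by more than counting error, at a chi-square per degree of freedom of 25.6 to 82.8.

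Cebpd is a leucine zipper transcription factor of the C/EBP family, known for its rapid induction by inflammatory signals and for a place in the acute phase response. Published work describes CEN as an enhancer linked to cebpd, while the labels do not say what it is. The adult zebrafish kidney combines nephrons with the blood-forming marrow and with interrenal tissue, the fish counterpart of the adrenal gland. The title of the series puts the question as one of finding Cebpd's kidney targets while the heart regenerates. The average asks which genes change in the mean of both knockouts. It does not require a change in each of them, so agreement between the experiments is described separately.

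Libraries had 15793475 to 18104535 counts in genes, and 11840 of 14781 genes were abundant enough to be tested. Levels are given as CPM, counts relative to library size scaled by the TMM method, on which 3 counts correspond to 0.157 to 0.199 CPM in a library. Proximal tubule genes summed to between 17700 and 31200 CPM in every library, and at most 2 of the 45 listed were at 0 in a library. Transcripts of the egg coat (zp genes) were present in fish labelled male. They summed to 66.7, 4.30 and 4.45 CPM in cebpd KO, against 0.731, 0.951 and 1.46 CPM in cebpd WT. The sums were 1300, 17.2 and 21.5 CPM in CEN KO, against 11.09, 1.41 and 6.05 CPM in CEN WT. In each experiment all 3 knockouts lay above all 3 wild types. The sums cover only egg coat genes that passed the filter on counts. A gene can pass it through the knockouts alone, so this separation may follow in part from the filter. CEN KO replicate 1 and cebpd KO replicate 1 stood highest, so several of the results below are also given without these libraries.

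The cebpd transcript checks the labels and was low in both kinds of knockout. It was at 10.4, 4.03 and 12.9 CPM in cebpd KO, against 316, 466 and 337 CPM in cebpd WT. It was at 67.8, 72.8 and 77.9 CPM in CEN KO, against 294, 333 and 212 CPM in CEN WT. Knockouts and wild types did not overlap in either experiment, and the loss was deeper in cebpd KO, at a log2 fold change of -5.36 ± 0.38 (SE) against -1.94 ± 0.32 (SE) in CEN KO. The difference between the effects was -3.42 ± 0.46 (SE) on the log2 scale, and its adjusted p was 0.0244 (edgeR's quasi-likelihood test, Benjamini-Hochberg adjustment). The average log2 fold change was -3.60 ± 0.61 (SE), and its adjusted p of 0.0896 missed the threshold of 0.05 in the additive model, in which any difference between the 2 effects counts as residual spread. As the mean of the separate effects in a model with a term for each group, the adjusted p of cebpd was 5.58e-05. Over 26 alternatives its adjusted p ran from 1.43e-06 to 0.449.

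**Figure D1:**
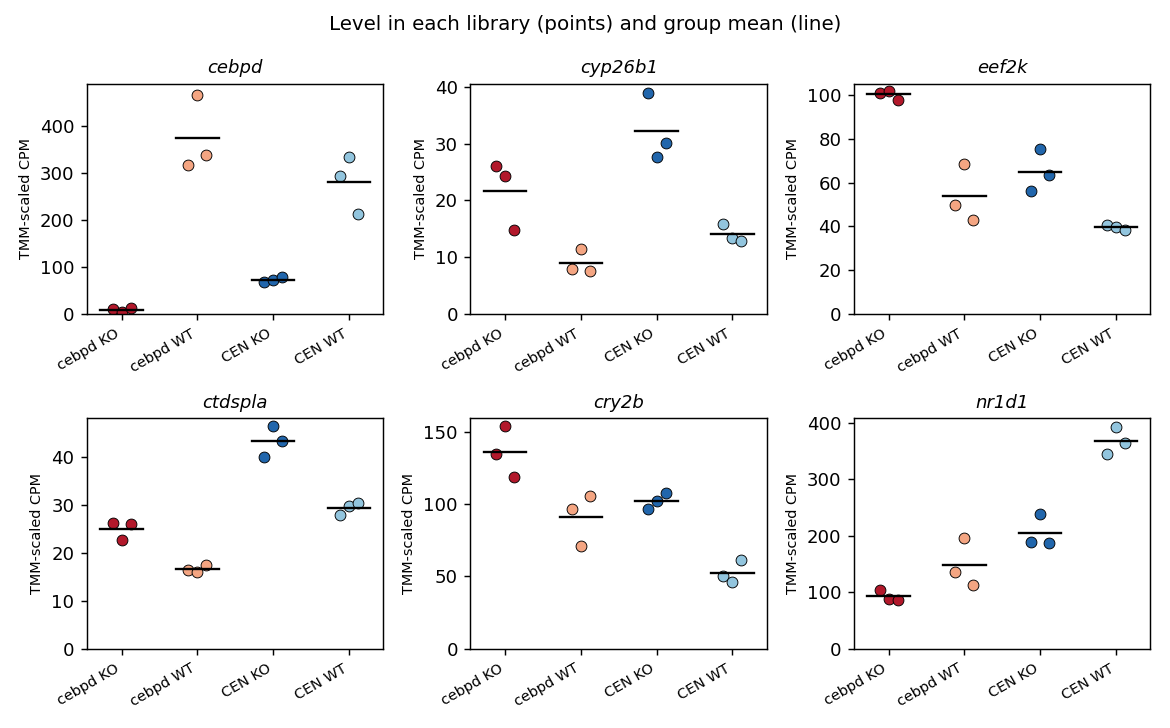
Level of 6 genes in each library, in TMM-scaled CPM on axes that start at 0. Points are libraries and horizontal lines are group means, with 3 libraries in each of cebpd KO, cebpd WT, CEN KO and CEN WT. For each of these genes the knockouts lie on one side of the wild types of their own experiment.

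The average test called 3 genes, all higher in the knockouts, and cebpd was not among them. They are cyp26b1, an enzyme that breaks down retinoic acid, eef2k, the kinase that phosphorylates elongation factor 2 and slows translation, and ctdspla, a phosphatase of the family that acts on the tail of RNA polymerase II. These 3 made up 0.0253% of the 11840 genes tested. No gene passed lower in the knockouts by edgeR's quasi-likelihood test, although 491 had an unadjusted p under 0.05 there and 552 did on the higher side, 8.81% of genes in all. With the DESeq2 Wald test 48 genes passed lower and 57 higher, and with limma-voom 2 passed lower and 3 higher.

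The cyp26b1 gene showed the largest increase of the 3. It stood at 26, 24.3 and 14.7 CPM in cebpd KO, against 7.98, 11.5 and 7.55 CPM in cebpd WT. In the other experiment it stood at 39.0, 27.7 and 30.2 CPM in CEN KO, against 15.9, 13.4 and 12.9 CPM in CEN WT. Every knockout library lay above every wild type of its experiment. The increase averaged 2.35-fold, or 1.23 ± 0.17 (SE) on the log2 scale (adjusted p 0.0494, edgeR's quasi-likelihood test). It was nearly the same size in both experiments, 1.27 ± 0.24 (SE) in cebpd KO and 1.2 ± 0.24 (SE) in CEN KO.

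The kinase gene eef2k was at 101, 102 and 97.8 CPM in cebpd KO, against 49.7, 68.6 and 42.9 CPM in cebpd WT. It was at 56.0, 75.1 and 63.5 CPM in CEN KO, against 40.5, 39.8 and 38.4 CPM in CEN WT. Groups did not overlap in either experiment, while 2 of the 3 CEN KO libraries lay within the range of cebpd WT. Expression averaged 1.75 times that of the wild types, 0.81 ± 0.12 (SE) on the log2 scale (adjusted p 0.0494, edgeR). The phosphatase gene ctdspla had 26.3, 22.7 and 26.1 CPM in cebpd KO, against 16.5, 16.0 and 17.4 CPM in cebpd WT. It had 39.9, 46.5 and 43.4 CPM in CEN KO, against 27.8, 29.7 and 30.3 CPM in CEN WT. Every library of the CEN experiment lay above every library of the cebpd experiment, and knockouts exceeded their own wild types in both. The increase was smaller than for the other two, 1.49-fold or 0.58 ± 0.08 (SE) on the log2 scale (adjusted p 0.0494, edgeR). In a newer gene table ctdspla lies on chromosome 24, the chromosome of cebpd.

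All 3 calls sat just inside the threshold. Leaving out 1 library kept cyp26b1 past it in 3 of 12 cases, eef2k in 2 and ctdspla in 0, with adjusted p up to 0.169 for each, and their log2 fold changes stayed between 1.16 and 1.33, 0.73 and 0.89, and 0.55 and 0.60. Without CEN KO replicate 1 and cebpd KO replicate 1 edgeR called 0 genes, with 1041 at an unadjusted p under 0.05. The log2 fold changes were then 1.08 for cyp26b1, 0.85 for eef2k (adjusted p 0.245 each) and 0.58 for ctdspla (adjusted p 0.272).

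Because cyp26b1 degrades retinoic acid, 16 genes of retinoid metabolism and signalling were looked at, chosen after values had been seen. Of these, cyp26b1 alone passed and 5 had an unadjusted p under 0.05 by edgeR, beside 8.81% of all genes. The 5 include cyp26b1, which prompted the choice, along with aldh1a2, rxrga, cyp26a1 and cyp26c1. The main enzyme that makes retinoic acid, aldh1a2, had 21.6, 21.0 and 25.2 CPM in cebpd KO, against 34.5, 34.2 and 28.4 CPM in cebpd WT. It had 21.9, 23.3 and 16.4 CPM in CEN KO, against 38.8, 43.1 and 28.5 CPM in CEN WT. Knockouts lay below wild types without overlap in both experiments, at an average log2 fold change of -0.68 ± 0.14 (SE), but the adjusted p of 0.117 by edgeR missed the threshold. The other degrading enzymes, cyp26a1 and cyp26c1, were near or below 1 CPM in most libraries and had average log2 fold changes of 1.15 ± 0.50 (SE, adjusted p 0.527) and -0.90 ± 0.40 (SE, adjusted p 0.544). The retinoid X receptor gene rxrga was at 0.32 ± 0.13 (SE, adjusted p 0.461). The receptor genes rarga and rarab were at 0.24 ± 0.16 and 0.05 ± 0.12 (SE), and rdh10a, which makes retinal from retinol, was at 0.01 ± 0.11 (SE). Its paralog rdh10b was at -0.78 ± 0.32 (SE) in cebpd KO and 1.16 ± 0.33 (SE) in CEN KO, and stra6, a receptor for retinol uptake, at 0.34 ± 0.35 (SE) in cebpd KO and -1.38 ± 0.35 (SE) in CEN KO. Neither difference between the knockouts passed by edgeR (adjusted p 0.119 for rdh10b and 0.170 for stra6). Of the 16 genes, cyp26b1 included, 10 had the same sign in both experiments, beside 46.7% of all genes.

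**Figure D2:**
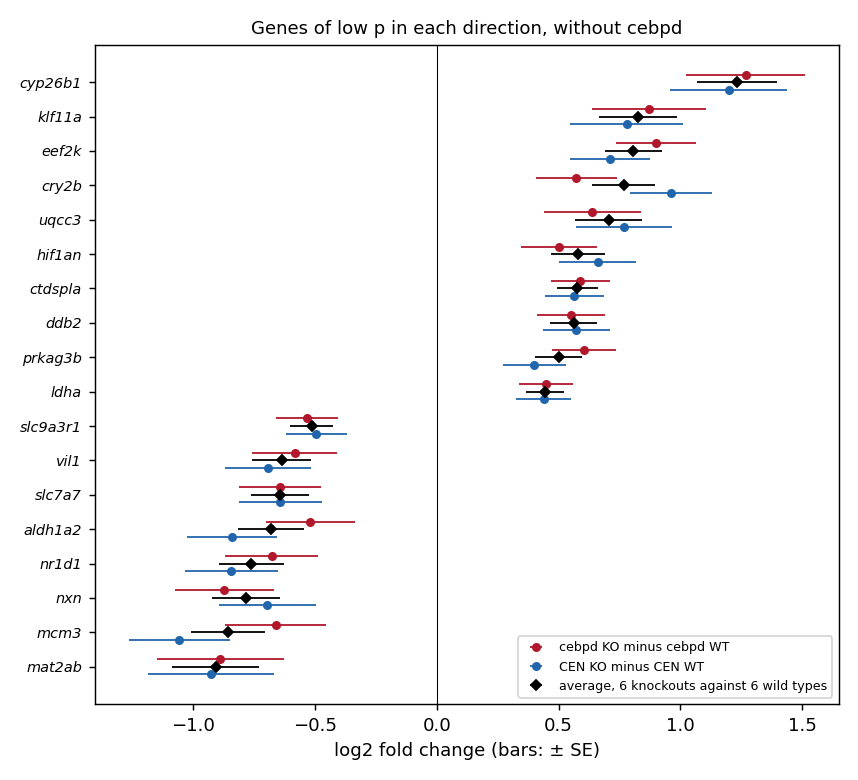
Log2 fold change of knockouts against wild types for the 10 genes of lowest p with an increase and 8 of those with a decrease, cebpd left out. Diamonds give the average over both experiments, circles the effect in cebpd KO (red) and in CEN KO (blue), and bars the standard error; cyp26b1 lies highest at 1.23 and mat2ab lowest at -0.91, and for each gene both circles lie on the same side of 0.

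At a looser threshold, an adjusted p under 0.1, 12 genes were listed, 0.101% of those tested, with 6 higher and 6 lower. In all 12 the groups did not overlap in either experiment and the direction was shared, beside 1.56% and 46.7% of all genes. Both traits follow largely from the choice of these genes by low p in the same libraries. Besides cebpd and the 3 called genes they included cry2b, ddb2 and ldha on the higher side and slc9a3r1, nr1d1, mcm3 and nxn on the lower side. Without the 2 libraries of highest egg coat level all 12 had the same sign and an unadjusted p under 0.05 by edgeR. Their adjusted p was then 0.245 to 0.289. The libraries that remained had also served to choose these genes.

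Genes of the circadian clock lay on both sides of the wild types. Of 44 tested, 0 passed by edgeR. An unadjusted p under 0.05 came with a higher value in 6, beside 4.66% of all genes, and with a lower one in 6, beside 4.15%. The DESeq2 Wald test called 5 of the 44 and limma-voom 0, beside 105 and 5 of the 11840 genes tested. The cryptochrome gene cry2b, called cry3b in the newer table, had 135, 154 and 119 CPM in cebpd KO, against 96.5, 71.3 and 106 CPM in cebpd WT. It had 96.9, 102 and 108 CPM in CEN KO, against 50.2, 46.0 and 61.3 CPM in CEN WT. Its average log2 fold change was 0.77 ± 0.13 (SE, adjusted p 0.0896, edgeR). The clock repressor gene nr1d1 went the other way, with 104, 87.4 and 85.6 CPM in cebpd KO, against 135, 196 and 112 CPM in cebpd WT. It had 189, 238 and 187 CPM in CEN KO, against 345, 392 and 363 CPM in CEN WT, an average log2 fold change of -0.76 ± 0.13 (SE, adjusted p 0.0896, edgeR). For both genes the groups did not overlap within an experiment. The cryptochrome genes cry5, cry4 and cry-dash were at 0.66 ± 0.13, 0.56 ± 0.14 and 0.49 ± 0.13 (SE), and bhlhe41, another clock repressor, at -0.59 ± 0.16 (SE), with adjusted p from 0.117 to 0.202. The zebrafish cry5 gene is known to encode a light-driven DNA repair enzyme, and ddb2, which recognises ultraviolet damage in DNA, was at 0.56 ± 0.10 (SE, adjusted p 0.0896). The median of all 44 clock genes was -0.02, against -0.003 over all genes, and ran from -0.08 to 0.06 with 1 library left out. In the newer table cry-dash lies on chromosome 24.

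The other genes near the threshold come from no single list. Lactate dehydrogenase A, ldha, had 226, 241 and 272 CPM in cebpd KO, against 172, 196 and 174 CPM in cebpd WT. It had 124, 135 and 125 CPM in CEN KO, against 96.0, 91.0 and 96.8 CPM in CEN WT. This gave 0.44 ± 0.08 (SE) on the log2 scale (adjusted p 0.0896, edgeR), with no overlap within an experiment. Positive values that missed the threshold were those of hif1an, an oxygen-dependent hydroxylase that restrains hypoxia-inducible factor, at 0.58 ± 0.11 (SE), prkag3b, a subunit of the energy sensor AMPK, at 0.50 ± 0.10 (SE), uqcc3, an assembly factor of respiratory complex III, at 0.71 ± 0.14 (SE), and the zinc finger factor klf11a at 0.83 ± 0.16 (SE). Each of these had an adjusted p of 0.117.

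On the lower side, slc9a3r1, a scaffold that holds transporters at the apical membrane (nherf1a in the newer table), had 103, 117 and 123 CPM in cebpd KO, against 172, 171 and 153 CPM in cebpd WT. It had 115, 137 and 122 CPM in CEN KO, against 157, 175 and 194 CPM in CEN WT, an average log2 fold change of -0.51 ± 0.09 (SE, adjusted p 0.0896, edgeR). The groups did not overlap within an experiment. Villin, vil1, which bundles actin in microvilli, was at -0.64 ± 0.12 (SE, adjusted p 0.117), and slc7a7, an exchanger of cationic amino acids also used as a macrophage-lineage marker in zebrafish, at -0.64 ± 0.12 (SE, adjusted p 0.1). Most of the macrophage list went the other way, with 25 of its 28 tested genes above 0, beside 49.4% of all genes. The redox protein gene nxn was at -0.78 ± 0.14 (SE, adjusted p 0.0896) and mat2ab, for an enzyme that makes S-adenosylmethionine, at -0.91 ± 0.18 (SE, adjusted p 0.117). The list of 40 proximal tubule genes had a median of 0.06, with 26 of them above 0, and -0.03 to 0.13 with 1 library left out.

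The helicase genes of DNA replication had negative log2 fold changes in both experiments and did not pass in the main edgeR test. Over 26 alternatives the adjusted p was under 0.05 in 5 for mcm3 and in 3 for mcm6. All 6 genes from mcm2 to mcm7, the subunits of the replicative helicase, had an average log2 fold change below 0, from -0.86 to -0.35. Each had an unadjusted p under 0.05 by edgeR, beside 8.81% of all genes, and an adjusted p from 0.0896 to 0.360. All 6 had the same sign in both experiments. Of the 1043 genes with such an unadjusted p, 98.0% did as well, so the shared sign follows largely from the low p. The 6 genes belong to the cell cycle list described below, in which mcm3 and mcm6 had the lowest p. The lowest p was that of mcm3, with 56.4, 51.2 and 58.4 CPM in cebpd KO, against 101, 62.4 and 98.6 CPM in cebpd WT, and 34.5, 30 and 25.3 CPM in CEN KO, against 63.7, 74.9 and 47.9 CPM in CEN WT. The groups of mcm3 and of mcm6 did not overlap in either experiment, while those of the other 4 did in at least 1. In the cebpd experiment mcm4 and mcm7 were at only -0.31 ± 0.21 and -0.16 ± 0.16 (SE). They were at -0.78 ± 0.21 and -0.55 ± 0.16 (SE) in the CEN experiment. Over all genes, 0.726% were lower in the knockouts without overlap in either experiment. In the newer table mcm4 is the neighbour of cebpd on chromosome 24.

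Over the whole list of 71 cell cycle and DNA replication genes, 65 had a value below 0, 39 had the same sign in both experiments and the median was -0.24. Among all 11840 genes, 5994 had a value below 0 and 46.7% had the same sign in both experiments. Of the 71, 15 had an unadjusted p under 0.05 by edgeR with a lower value, beside 4.15% of all genes. With a higher value there were 0, beside 4.66%. At the threshold edgeR called 0, the DESeq2 Wald test 5 and limma-voom 0, beside 3, 105 and 5 of the 11840 genes tested. The median was -0.01 in the cebpd experiment and -0.44 in the CEN experiment. Averaged over the list, cebpd KO libraries had log2 CPM values of 5.14, 4.95 and 4.96 and cebpd WT libraries 5.21, 4.48 and 5.41. CEN KO libraries had 5.05, 4.20 and 4.23 and CEN WT libraries 5.17, 5.18 and 4.64, so groups overlapped in both experiments. Red cell genes lay alongside, with 31 of 33 below 0 and a median of -0.22. In whole kidney, fewer cells of a type and less RNA per cell cannot be told apart. Both medians rested in part on single libraries. That of the cell cycle list was -0.13 without CEN KO replicate 2, -0.16 without CEN WT replicate 1 or CEN WT replicate 2, -0.37 without CEN KO replicate 1 and -0.38 without cebpd WT replicate 2. That of the red cell list was -0.05 without cebpd WT replicate 3, -0.12 without CEN KO replicate 2, and -0.38 to -0.35 without cebpd WT replicate 2, cebpd KO replicate 1 or CEN KO replicate 1. Without the 2 libraries of highest egg coat level they were -0.43 and -0.45. The gene cdkn1a, for an inhibitor of the cell cycle, was at -0.81 ± 0.17 (SE, adjusted p 0.129, edgeR).

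**Figure D3:**
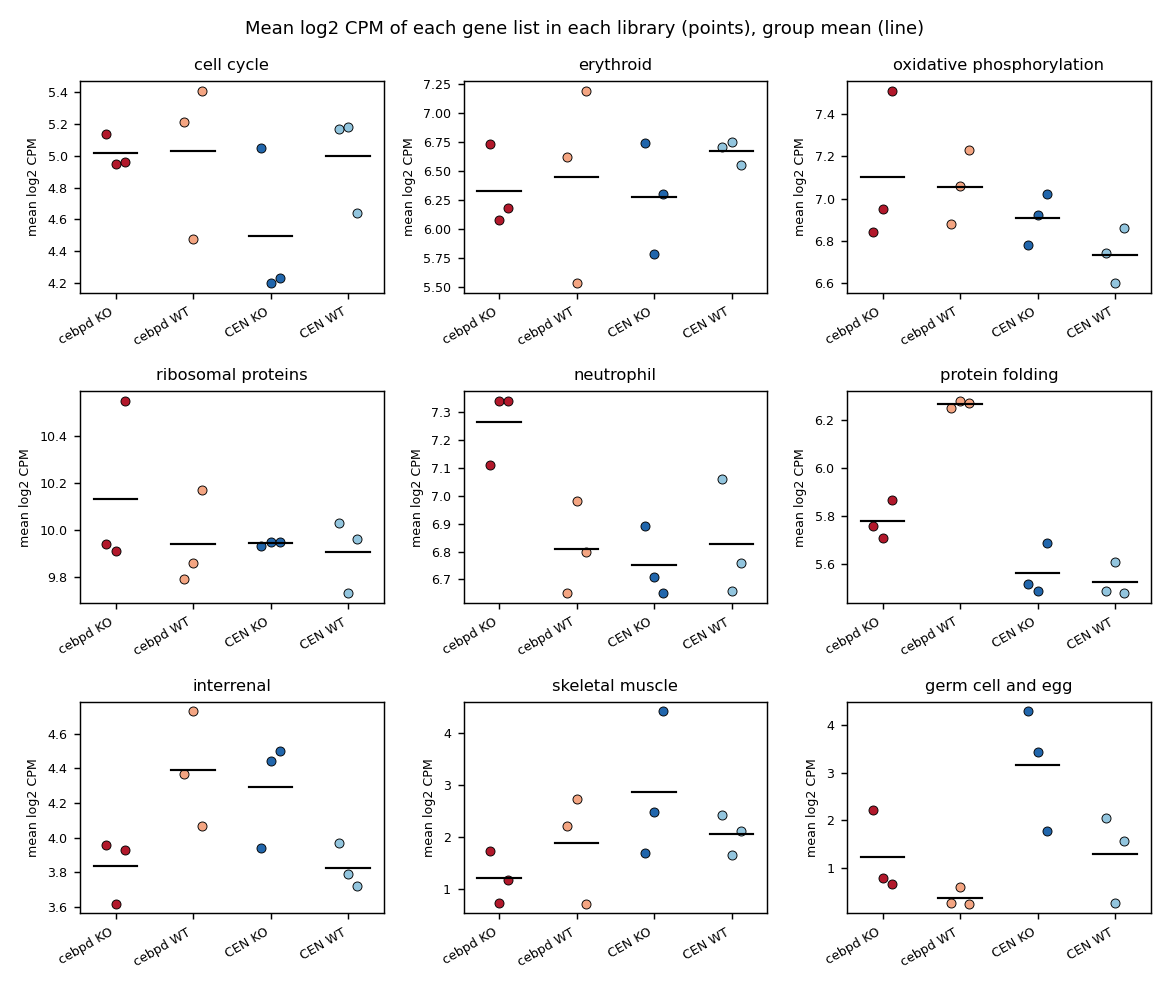
Mean log2 CPM of 9 gene lists in each library (points) with the group mean (line), for cebpd KO, cebpd WT, CEN KO and CEN WT, 3 libraries each, with an axis range of its own in each panel. The protein folding and neutrophil lists separate cebpd KO from cebpd WT and overlap between CEN KO and CEN WT, and the cell cycle list overlaps in both experiments.

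Of the 1240 genes on any of the 36 lists, edgeR called 0, with 162 at an unadjusted p under 0.05, beside 8.81% of all genes. The DESeq2 Wald test called 28 and limma-voom 1, which was cebpd, beside 105 and 5 of the 11840 genes tested. In several lists the experiments gave medians of different size or sign. Neutrophil genes had an average median of 0.24, with 0.54 in the cebpd experiment and -0.10 in the CEN experiment. Averaged over the list, cebpd KO libraries had log2 CPM values of 7.11, 7.34 and 7.34 and cebpd WT libraries 6.65, 6.98 and 6.80. CEN KO libraries had 6.89, 6.71 and 6.65 and CEN WT libraries 7.06, 6.66 and 6.76, so the CEN groups overlapped and the cebpd groups did not. Macrophage genes were similar, at 0.19 on average, 0.45 in the cebpd experiment and 0.04 in the CEN experiment. Heat shock and protein folding genes had medians of -0.18 on average, -0.31 in the cebpd experiment and 0.03 in the CEN experiment. Averaged over this list, cebpd WT libraries had log2 CPM values of 6.25, 6.28 and 6.27, and libraries of the other groups 5.48 to 5.87. Genes of the interrenal tissue were at -0.53 in the cebpd experiment and 0.51 in the CEN experiment, which averaged to -0.06. Skeletal muscle genes were at -0.79 and 1.64, and the average of 0.38 became -0.43 without CEN KO replicate 3 and -0.05 without CEN WT replicate 2. Without cebpd WT replicate 1 the neutrophil median was 0.14 and the macrophage median 0.10, and without cebpd KO replicate 2 the neutrophil median was 0.16 and the folding median -0.11. Leaving out the 2 libraries of highest egg coat level gave average medians of 0.24 for neutrophil, 0.21 for macrophage and -0.13 for folding genes. In that fit the interrenal median was 0.06, of the other sign, and the skeletal muscle median 0.725.

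Respiratory and ribosomal genes had small medians of the same sign in both experiments. Over all genes tested 49.4% lay above 0, and the members of a list share the same libraries and are not independent. Subunits of oxidative phosphorylation were above 0 in 80 of 84 genes with a median of 0.10, 0.06 in the cebpd experiment and 0.15 in the CEN experiment. Ribosomal proteins were above 0 in 80 of 87 genes with a median of 0.15, 0.27 in the cebpd experiment and 0.03 in the CEN experiment. Without cebpd KO replicate 3, the library of lowest TMM factor at 0.835, these medians were 0.005 and 0.01. Leaving out the 2 libraries of highest egg coat level made them 0.19 and 0.215. Genes of multiciliated tubule cells were below 0 in 42 of 49, with a median of -0.16, -0.21 in the cebpd experiment and -0.11 in the CEN experiment, and it was -0.10 without cebpd WT replicate 1. In this list ropn1l, a protein of motile cilia and sperm tails that lies on chromosome 24 in the newer table, was at -1.25 ± 0.30 (SE, adjusted p 0.159, edgeR). Acute phase and plasma protein genes, among which C/EBP factors have known targets, were above 0 in 37 of 43 with a median of 0.48, 0.43 in the cebpd experiment and 0.93 in the CEN experiment. Of these, 15 had an unadjusted p under 0.05 with a higher value, beside 4.66% of all genes. CEN KO replicate 2 stood apart, with a mean log2 CPM over the list of 4.24, against 1.83 to 2.68 in the other libraries, and without it the median was 0.195. In the fit without the 2 libraries of highest egg coat level the acute phase median was 0.762 and that of multiciliated tubule cells -0.09. The fibrinogen gene fga averaged 2.12 ± 3.46 CPM in cebpd KO and 0.101 ± 0.096 CPM in cebpd WT, and 14.7 ± 24.9 CPM in CEN KO and 0.83 ± 0.618 CPM in CEN WT (SD, n = 3 each), so its spread among knockouts exceeded its mean. Among C/EBP genes other than cebpd, cebpg was at -0.27 ± 0.10 (SE, adjusted p 0.392), cebpb at -0.13 ± 0.18 (SE) and cebpa at -0.01 ± 0.14 (SE).

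Across all genes the experiments shared little direction. Of 11840 genes, 5525 had the same sign in cebpd KO and CEN KO, 46.7%, and 6315 had opposite signs. Among the 237 genes with an unadjusted p under 0.05 in both experiments, 97 had the same sign and 140 opposite signs. Genes whose knockouts and wild types did not overlap in either experiment numbered 185 in the same direction, 1.56% of genes, of which 99 were higher (0.836%) and 86 lower (0.726%). In opposite directions they numbered 233. The correlation of the effects across genes was 0.43 by Pearson's r and -0.08 by Spearman's rho, over genes that share libraries and are not independent. Without the germ cell, muscle, heart, pancreas and plasma protein lists, which left 11711 genes, these were 0.41 and -0.08. Those lists lack genes of large effect in both experiments, such as dopey2 and retsatl. The second pair of values therefore cannot show what egg coat and similar transcripts contribute to the correlation.

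**Figure D4:**
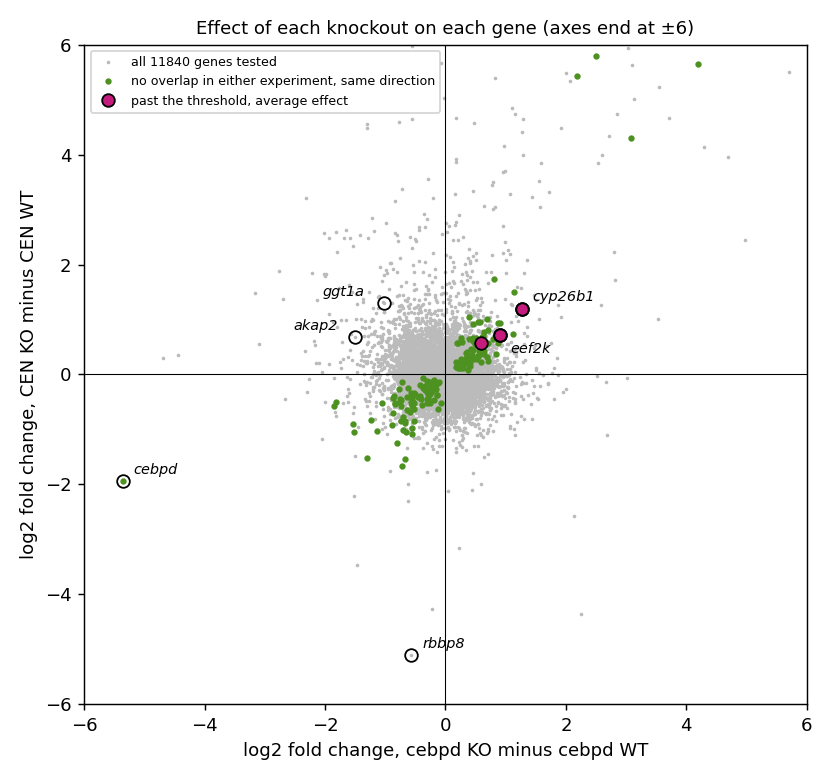
Log2 fold change in cebpd KO against cebpd WT (horizontal) and in CEN KO against CEN WT (vertical) for all 11840 genes tested, with genes beyond 6 on either axis outside the frame. Green points are genes whose groups did not overlap in either experiment with a shared direction, pink points are cyp26b1, eef2k and ctdspla, and open circles mark other genes named in the text. The cloud has no main diagonal, with 46.7% of genes of the same sign; cebpd lies at -5.36 and -1.94, and rbbp8 at -0.57 and -5.11.

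The largest effects that were free of overlap and shared in direction belonged mostly to egg coat genes. By the size of the smaller of their effects, the 8 leading genes were dopey2, zp3, zp2.1, zp3.1, zp2l1, zp3.2, retsatl and zp3a.1, of which 6 encode egg coat proteins. Their adjusted p was 0.157 to 0.162. The egg coat gene zp3 had 4.33, 0.269 and 0.133 CPM in cebpd KO, against 0 CPM in all 3 cebpd WT libraries. It had 106, 1.39 and 1.09 CPM in CEN KO, against 0.549, 0 and 0.339 CPM in CEN WT. Outside the replicate 1 libraries of the knockouts its level was at most 1.39 CPM, and 0.133 CPM lies under the floor of 3 counts. The size of such effects rests on wild types at or near 0. The list of germ cell, egg coat and yolk genes had 26 of 29 tested members above 0, beside 49.4% of all genes. These 29 were the members, of 44 counted, that passed the filter. A member that is low in wild types, such as zp3, passes through the knockouts, so its value above 0 follows in part from the filter. The count above 0 is therefore no independent support for a difference. The median of the list was 3.13, with 0.41 in the cebpd experiment and 4.84 in the CEN experiment. Without the 2 libraries of highest egg coat level its median was 0.60, without CEN KO replicate 1 alone 1.61, and with the filter of 10 CPM, which leaves 7 members, 0.12.

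For 5 genes, 0.0422% of those tested, the effects of the knockouts differed from each other by edgeR's quasi-likelihood test, so their average describes neither. Besides cebpd these were rbbp8, akap2, desi1a and ggt1a. The DNA end resection gene rbbp8 had 6.18, 3.87 and 4.71 CPM in cebpd KO, against 7.53, 5.51 and 8.83 CPM in cebpd WT. It had 0.388, 0.0579 and 0.0606 CPM in CEN KO, against 6.15, 7.69 and 4.81 CPM in CEN WT. It was thus near or under the floor in CEN KO alone, and the difference between the effects was 4.54 ± 0.63 (SE) on the log2 scale (adjusted p 0.0244). Its average log2 fold change of -2.22 ± 0.68 (SE) had an adjusted p of 0.293. The anchor protein gene akap2 averaged 18.9 ± 2.75 CPM in cebpd KO and 53.4 ± 10.7 CPM in cebpd WT, and 27.5 ± 3.64 CPM in CEN KO and 17.1 ± 0.716 CPM in CEN WT (SD, n = 3 each). The proximal tubule enzyme gene ggt1a likewise went opposite ways, at -1.02 ± 0.23 (SE) in cebpd KO and 1.3 ± 0.23 (SE) in CEN KO. Its wild types also differed, with means of 658.5 CPM in cebpd WT and 64.4 CPM in CEN WT, against 325.5 CPM in cebpd KO and 158.7 CPM in CEN KO.

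The cebpd comparison by itself called 9 genes apart from cebpd. Of these 9, 5 had the same sign in CEN KO, beside 46.7% of all genes. The average test by edgeR called 0 of them, beside 0.0253% of all genes, with adjusted p from 0.157 to 0.795. The ammonia transporter gene rhbg was at -1.11 ± 0.18 (SE) in cebpd KO and -0.19 ± 0.18 (SE) in CEN KO, and the chaperone gene hsp90aa1.2 at -2.34 ± 0.32 (SE) and 0.42 ± 0.30 (SE). Taking the mean of the separate effects in the 4-group model, 7 genes passed, 0.0591% of those tested. These were the 3 of the additive model with cebpd, rbbp8, zgc:56530 and cry2b, and 2 of the added ones, rbbp8 and zgc:56530, had most of their effect in 1 experiment.

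Genes on chromosome 24, which carries cebpd, rbbp8 and ctdspla, had low p-values more often than those on any other chromosome. Of 316 genes tested there, 65 had an unadjusted p under 0.05 in the average test, 20.6%. On the other chromosomes the share was 6.29 to 12.9%, with the highest on chromosome 22, and 8.45% pooled. Within the cebpd experiment it was 21.5%, against at most 15.8% elsewhere, and within the CEN experiment 19.6%, against at most 13.3% elsewhere. Genes whose groups did not overlap in either experiment, in a shared direction, made up 4.11% on chromosome 24 and 0.364 to 2.83% elsewhere. Chromosome 24 stood highest in all 25 alternatives with a fit of their own, at 14.2 to 24.4%, and it was at 18.4% without the 2 libraries of highest egg coat level.

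**Figure D5:**
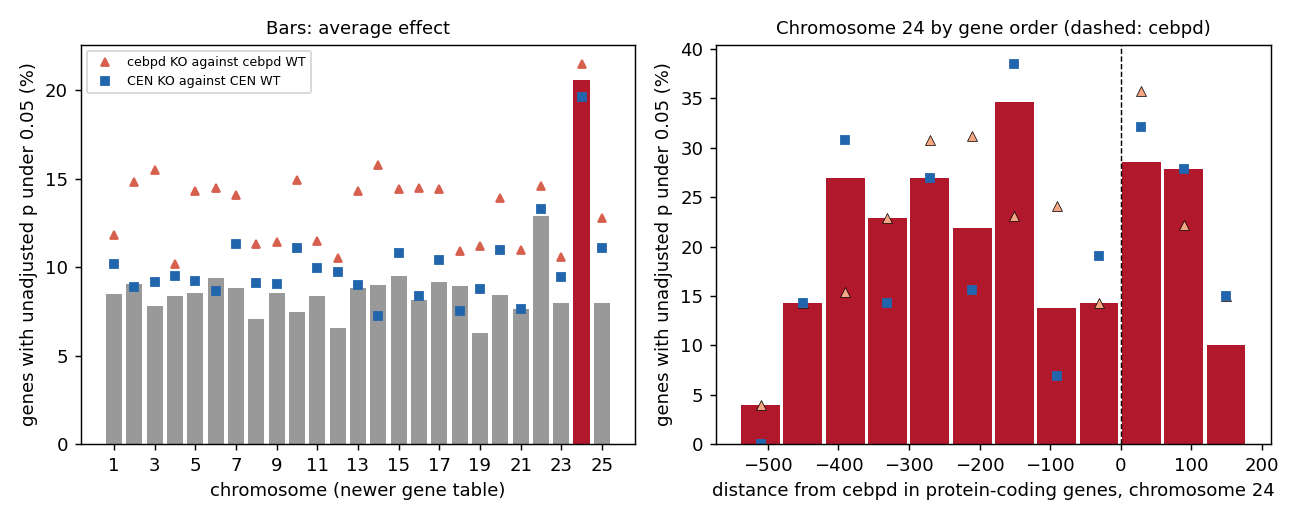
Left, share of genes on each chromosome with an unadjusted p under 0.05 in the average test (bars), in the cebpd experiment (triangles) and in the CEN experiment (squares). Right, the same share along chromosome 24 in windows of gene order, with cebpd at the dashed line; chromosome 24 stands at 20.6%, and its high windows reach 34.6% and are not confined to the neighbourhood of cebpd.

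Chromosome 24 genes of low p were found far from cebpd as well as near it. In the order of protein-coding genes of the newer table, 12 genes lie between cebpd and rbbp8 and 276 between cebpd and ctdspla, of 721 on the chromosome. In 12 windows of gene order, leaving out a window of 2 tested genes, the share ran from 4 to 34.6%, and it was 28.6% in the window that starts at cebpd. These windows held 18 to 35 tested genes each, so a share rests on few genes, and differences between windows were not tested. In 1 distant window, with 7 of 26 genes (26.9%), the 7 included zgc:171474, zgc:171750, zgc:152652 and zgc:171977. Their average log2 fold changes were 8.57, 7.97, 7.81 and 7.44, as large as those of egg coat genes. Window shares without the 2 libraries of highest egg coat level are not given here. After ctdspla and cebpd the lowest p belonged to pcmtd1, which lies 5 genes from cebpd and was at 0.69 ± 0.14 (SE, adjusted p 0.117, edgeR). Next among named genes were acot9.1, a thioesterase of fatty acyl-CoA, at -0.66 ± 0.13 (SE, adjusted p 0.117), sgk3, a kinase related to the aldosterone-induced sgk1, at 0.43 ± 0.09 (SE, adjusted p 0.157), and grnb, a progranulin gene, at -0.42 ± 0.10 (SE, adjusted p 0.157). Each had the same sign in both experiments. On chromosome 24, loss of cebpd or CEN and other sequence differences between the mutant and wild-type copies of the chromosome cannot be told apart in these groups. This applies to rbbp8, ctdspla, mcm4, cry-dash and ropn1l, among others named above. The called genes cyp26b1 and eef2k lie on chromosomes 7 and 12, and the cause of their change was not tested.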

How the data were processed

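Whole-kidney RNA was sequenced in 12 libraries, and the authors deposited raw counts, not normalized, by gene symbol. The tools, per the submitters' processing notes, were Trim Galore 0.6.4, TopHat2 2.1.1 and HTSeq, on build danRer10, and no source used here gives the annotation or the use of strand. Reads from a gene and its antisense partner thus cannot be told apart, nor can those of near-identical copies, egg coat genes among them. The 5 summary lines of each table entered neither library sizes nor tests, and 32.1 to 38.5% of a table's total fell outside genes.

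The analysis used edgeR 4.0.16 in R 4.3.3. Genes were kept by filterByExpr (minimum count 10) and scaled by TMM, with factors from 0.835 to 1.10. The average effect is the genotype term of a quasi-likelihood model with a term for experiment and 9 residual degrees of freedom. Effects in each experiment and their difference come from a 4-group model with 8 residual degrees of freedom. The threshold was 0.05 on p-values adjusted by Benjamini-Hochberg over the 11840 genes tested, and a standard error is the log2 fold change divided by the square root of F. The common biological coefficient of variation was 26.3%. On simulated counts of the same size the average test recovered 36% of genes changed 1.5-fold and 78% of genes changed 2-fold, with 10 false among 162 calls. In these counts a changed gene had at least 1 CPM and the same effect in both knockouts. The shares therefore do not hold for genes whose effects differ between the knockouts, as those of cebpd did. The adjustment also admits larger unadjusted p-values where many genes are called, as with the 162 simulated calls. The real counts gave 3 calls, so their cut was stricter and the shares do not carry over to them. Standard errors and SDs cover the spread between libraries, and the floor of 3 counts covers counting error only.

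The comparison, the 36 gene lists and the rule for named genes were chosen with earlier results of these data known. The rule named cebpd and rbbp8, called genes of the same sign in both experiments with at least 1 CPM in a group, the genes of lowest p up to 10 in each direction, the 8 largest effects free of overlap in both experiments, and the members of lowest p of each list. A gene with no name but an identifier gave way to the next, and 1 gene that the rule named is not reported here. Lists are described by counts and medians, with no test, and those not given in the text had medians between -0.22 and 0.28.

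Alternatives were DESeq2 1.42.0 size factors and its Wald test, limma 3.58.1 with voom with and without sample quality weights, the 20 most abundant genes left out of scaling, all genes unfiltered, 10 CPM in 3 libraries as a filter, the mean of both effects in the 4-group model, no term for experiment, a replicate block, a tissue composition covariate (tubule minus blood lists), an adjusted p under 0.1, and each library left out. edgeR with robust estimation and a fit without the 2 libraries of highest egg coat level were added after seeing the data. Symbols were matched to the RefSeq gene table of the assembly GRCz12tu, 12660 by symbol and 1859 by synonym, with 262 unmatched, for newer names, chromosomes and gene order only. Promoter sequences were not used here.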

Additional observations from a re-analysis of the deposited data

Results flagged for a closer look

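Of the genes named by the rule, 2 had effects that differed between the knockouts by edgeR's quasi-likelihood test. For cebpd the effect in cebpd KO minus that in CEN KO was -3.42 on the log2 scale, and for rbbp8 it was 4.54, so the average is a poor description of either gene. Over 42 checks of a gene in the 6 knockouts or the 6 wild types, 0 libraries stood far from the other 5 by Dixon's criterion. That criterion would mark about 1 group in 20 by chance. Only cebpd, rbbp8 and the genes of lowest p were checked, with both experiments pooled. Egg coat genes were not checked, and zp3 averaged 36.1 ± 60.4 CPM in CEN KO (SD, n = 3).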

How the results depend on the processing

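The number of genes past the threshold depended on the test. From 3 (3 higher, 0 lower) it was 1 (1 higher) with no filter, 11 (6 and 5) with the 10 CPM filter, 105 (57 and 48) with the DESeq2 Wald test, 5 (2 lower) with limma-voom and 30 (16 and 14) with quality weights. It was 7 (5 and 2) as the mean of the 2 effects, 0 with no term for experiment, 101 (74 and 27) with the composition covariate, zp2.5 and zp3 among them, and 12 (6 and 6) at an adjusted p under 0.1. Scaling without the 20 most abundant genes and robust estimation each called 1 lower gene as well. Leaving out 1 library gave 0 to 6 genes, 0 to 3 higher and 0 to 3 lower, with 0 in 9 of 12 cases, and without the 2 libraries of highest egg coat level 0 passed. The cause of these shifts was not tested. All 3 genes of the main result were among those called with DESeq2, limma-voom, quality weights, the composition covariate and the replicate block.

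With the replicate number as a block 28 genes passed, 20 higher and 8 lower. Correlations of same-numbered libraries were 0.30, -0.01 and 0.37 in the cebpd experiment and 0.20, -0.02 and 0.16 in the CEN experiment, and 4 of 6 knockout libraries correlated best with the wild type of their own number, a hint from the data and not from the design.

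The average effect of cebpd passed at -3.61 with the 10 CPM filter, -3.65 with DESeq2 and as the mean of the 2 effects, -3.57 with limma-voom, -3.27 with quality weights, -3.68 with the composition covariate and -3.60 at an adjusted p under 0.1, and it was -4.01 to -3.15 with 1 library left out. Neither cebpd nor any of the 91 other genes followed through the alternatives changed sign under any of them. Most of these genes were named for low p or large effects in the same libraries, which favours a stable sign. Of the list medians, those of proteasome, ribosome, muscle and germ cell lists moved by more than the spread within the list.

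With 6 libraries a side, changes of 1.5-fold were mostly below what the average test could call, so a gene that missed the threshold is not shown to be equal.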

Other observations

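Genes of the amino acid stress response and of serine synthesis had a median log2 fold change of -0.22 in the average, with -0.39 in the cebpd experiment and -0.04 in the CEN experiment. Of 35 tested, 25 lay below 0, beside 5994 of all 11840 genes, and 0 passed by edgeR. An unadjusted p under 0.05 came with a lower value in 7, beside 4.15% of all genes, and with a higher value in 2, beside 4.66%. The DESeq2 Wald test called 4 of the 35 and limma-voom 0, beside 105 and 5 of the 11840 genes tested. The stress-induced pseudokinase gene trib3 averaged 42.2 ± 1.61 CPM in cebpd KO and 71.7 ± 11.4 CPM in cebpd WT, and 52.2 ± 4.07 CPM in CEN KO and 62.6 ± 3.84 CPM in CEN WT (SD, n = 3 each). The groups did not overlap in either experiment, and the average log2 fold change was -0.51 ± 0.11 (SE, adjusted p 0.157, edgeR). The mitochondrial folate enzyme gene mthfd1l was at -0.79 ± 0.18 (SE, adjusted p 0.157).

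The clearance receptor of natriuretic peptides, npr3, averaged 23.8 ± 3.56 CPM in cebpd KO and 43.6 ± 10.02 CPM in cebpd WT, and 20.6 ± 2.92 CPM in CEN KO and 27.7 ± 4.62 CPM in CEN WT (SD, n = 3 each). Its groups did not overlap in either experiment, at -0.65 ± 0.15 (SE, adjusted p 0.157, edgeR) on the log2 scale. Among genes of lipid use, plin2, which coats lipid droplets, was at 0.49 ± 0.11 (SE, adjusted p 0.157) with no overlap, and angptl4, an inhibitor of lipoprotein lipase, at 0.91 ± 0.23 (SE, adjusted p 0.160), with 0.34 in the cebpd experiment and 1.47 in the CEN experiment.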
